A study of Mus musculus with 6 samples.

Results

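Granulocyte-macrophage progenitors (GMPs) are bone marrow cells that give rise to neutrophils, monocytes and their relatives, and which of these they become is set by a small number of DNA-binding proteins. The genes of 10 such factors (Irf8, Spi1, Cebpa, Cebpb, Cebpe, Gfi1, Klf4, Zeb2, Runx1 and Myb) were taken by symbol from a table of 37620 genes, and all 10 were found. Spi1 encodes PU.1, an ETS factor that myeloid cells need in order to form, and Cebpa encodes C/EBP-alpha, which progenitors need in order to reach the granulocyte path. Downstream of these, IRF8, KLF4 and ZEB2 are known for their part in monocytes and dendritic cells, whereas GFI1 and C/EBP-epsilon are needed for neutrophil formation, and GFI1 and IRF8 are known as opponents in that choice. RUNX1 and MYB act earlier, in stem and progenitor cells, and C/EBP-beta is the family member used when granulocyte production is raised in an emergency.

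GMPs were sorted from bone marrow of C57BL/6 mice by surface markers (no lineage markers, no Sca1, with c-Kit, CD34 and an Fc gamma receptor stain), from animals aged 65 days. The 3 libraries labelled Bap1 knockout were from MX1+ Cre Bap1 f/f mice, in which Cre is made from the interferon-responsive Mx1 promoter and the floxed Bap1 gene, which encodes a histone H2A deubiquitinase, can be cut. The 3 control libraries were from Bap1 f/f mice without Cre. Mice of both groups carried the floxed alleles and received polyI:polyC, a double-stranded RNA mimic that induces interferon, at 42 days per the sample labels (the design text gives an earlier age). Cre was present in the knockout-labelled mice alone, so an effect of Cre and an effect of Bap1 loss cannot be told apart, and whether libraries came from separate animals is not stated, so p-values measure the spread between these libraries.

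The libraries held 19464353 to 24085250 gene reads in the knockout-labelled group and 24125905 to 25901725 in the control group, and reads were PCR products without molecular identifiers. Bap1 was checked as the targeted gene: its normalized count was 2671.1, 3308.8 and 2967.8 in the libraries labelled knockout and 1343.4, 998.5 and 1075.9 in control libraries. Bap1 was thus higher in the libraries labelled knockout (limma log2 fold change 1.39, SE 0.14, adjusted p = 6.07e-05), against the label. A count over the whole gene does not check the deleted part, and each direction given refers to the labels as they stand. All 7 marker genes fixed for GMPs were read in every library, and of the sort gate genes Kit rose while Cd34 and Fcgr3 fell. Knockout-labelled replicate 3 was the shallowest library and had the lowest value of 7 of the 10 factors within its group. In bulk RNA, fewer cells of a type and less RNA per cell cannot be told apart.

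Of the 10 factor genes, 3 fell (Irf8, Klf4 and Zeb2), 2 rose (Cebpe and Gfi1) and 5 did not pass the test (Spi1, Cebpa, Cebpb, Runx1 and Myb). The genes that fell are those of monocyte and dendritic factors, and the genes that rose are those of neutrophil factors. A call means a Benjamini-Hochberg adjusted p under 0.05 in limma, fitted over 14391 genes on log2(normalized count + 1). That share, 50% of the factors, stands beside 26.8% of all genes tested. Per direction, the 2 that rose stand beside 11.8% of all genes and the 3 that fell beside 15%. All 10 passed the filter on low values, a mean normalized count of at least 10. The same 5 factors were called by edgeR (26% of all genes, 11.7% higher and 14.4% lower) and by DESeq2 (20.4%, 9.27% higher and 11.2% lower). The 5 calls held in each of the 16 alternative settings tried.

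**Figure D1:**
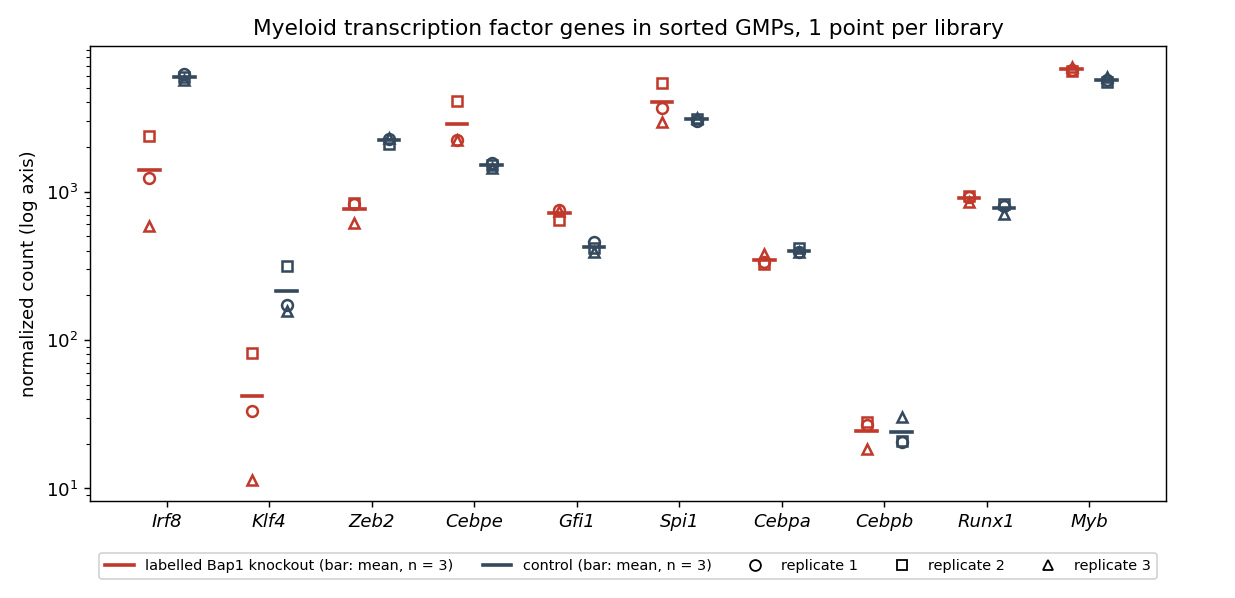
Normalized count (y axis, log scale) of each factor gene (x axis) in 3 knockout-labelled libraries (red, left) and 3 control libraries (dark, right); each point is a library, its shape gives the replicate number and the bar is the mean. Irf8, Klf4 and Zeb2 lie lower, and Cebpe and Gfi1 higher, in all 3 knockout-labelled libraries than in any control library.

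Irf8 encodes interferon regulatory factor 8, which steers progenitors towards the monocyte and dendritic lineages. Its promoter is shown because the interferon regulatory factor (IRF) family moved with it, as described below, and because the window holds the gamma-activated sequence (GAS) for which this promoter is known, a site through which interferon gamma acts on genes. The windows run from 250 bases before to 50 bases after a RefSeq start site on GRCm38.p6, strand as stated, with capitals marking TTCNNNGAA, the GAS pattern, which reads alike on both strands. Of 2 Irf8 windows, the one at chr8:120736108-120736407 on the plus strand is shown, and the other holds no match. The window of Irf1, a second IRF gene whose promoter is known for a GAS, lies at chr11:53769764-53770063 on the plus strand. For Zeb2, of 4 windows, the one at chr2:45113230-45113529 on the minus strand is shown.
Irf8: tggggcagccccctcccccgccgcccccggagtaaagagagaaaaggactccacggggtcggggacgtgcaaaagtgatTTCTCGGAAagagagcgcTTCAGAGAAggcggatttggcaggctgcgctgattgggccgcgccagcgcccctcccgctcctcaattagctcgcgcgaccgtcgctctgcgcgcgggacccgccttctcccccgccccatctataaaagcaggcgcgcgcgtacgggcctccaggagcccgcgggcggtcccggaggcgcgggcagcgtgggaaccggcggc
Irf1: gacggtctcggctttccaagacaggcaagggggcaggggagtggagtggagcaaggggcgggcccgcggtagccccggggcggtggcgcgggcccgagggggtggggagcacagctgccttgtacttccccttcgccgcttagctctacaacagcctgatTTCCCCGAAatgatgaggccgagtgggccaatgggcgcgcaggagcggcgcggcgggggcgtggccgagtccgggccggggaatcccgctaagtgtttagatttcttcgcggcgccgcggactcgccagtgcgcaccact
Zeb2: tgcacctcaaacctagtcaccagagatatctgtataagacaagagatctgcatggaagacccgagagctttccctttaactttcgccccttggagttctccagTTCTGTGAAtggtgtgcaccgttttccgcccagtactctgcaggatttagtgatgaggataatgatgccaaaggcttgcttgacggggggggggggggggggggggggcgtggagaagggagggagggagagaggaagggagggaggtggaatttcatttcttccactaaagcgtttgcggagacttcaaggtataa

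The GAS pattern matched at positions -171 and -153 of the Irf8 window, counted from the start site, at -90 in the Irf1 window and at -147 in the Zeb2 window. The Zeb2 match lies in an overlapping window of that gene as well. Of the 8 factor genes with a promoter in the RefSeq table, 2 had a match (Irf8 and Zeb2), and of 8 IRF genes 3 did (Irf1, Irf2 and Irf8), and 8.3% of all 32807 promoter windows did. A gene was counted if any of its windows matched (14 windows for the factor genes and 11 for the IRF genes), so the counts of genes and the share of windows are not on the same footing. The interferon-stimulated response element, searched by its core on both strands, matched none of the 8 factor genes and 3.4% of all windows. Further patterns searched were CCACCC (the CACCC box), AACGG (MYB), CACCTG (an E-box of ZEB) and TGTGGT (RUNX). They matched 5, 4, 3 and 1 of the 8 factor genes, in that order. Among all windows, 31.5%, 17.4%, 20.2% and 16.8% held them. These matches describe the sequence and say nothing of binding.

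Irf8 had 1238.5, 2361.3 and 586.9 normalized counts in knockout-labelled libraries and 6207.9, 5914.5 and 5677.0 in control libraries. Every knockout-labelled library lay below every control library, and the highest and lowest knockout-labelled libraries differed 4.02-fold, against 1.09-fold among controls. The fitted change was -2.31 on the log2 scale (SE 0.36, limma adjusted p = 0.000833), 4.95-fold lower. It was -1.79 without knockout-labelled replicate 3 and -2.80 without replicate 2, with limma adjusted p = 0.000327 and 0.000204.

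Klf4, a Krüppel-like factor needed for monocyte formation, fell most among the 10. Its normalized counts were 33.1, 82.3 and 11.4 in knockout-labelled libraries and 171.5, 316.3 and 157.8 in control libraries, so the groups did not overlap. The change was -2.65 (SE 0.57, limma adjusted p = 0.00578), with 10 reads in knockout-labelled replicate 3, and -2.34 in edgeR and DESeq2. It was -1.95 without that library and -3.32 without knockout-labelled replicate 2 (limma adjusted p = 0.00943 and 0.0021), so each of these libraries moved the fold by over 1.5 times.

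Zeb2, a zinc finger E-box repressor needed by monocytes and dendritic cells, had 824.6, 842.3 and 613.2 normalized counts in knockout-labelled libraries and 2263.0, 2097.3 and 2308.6 in control libraries. Its change of -1.56 had the smallest p of the 10 (SE 0.15, limma adjusted p = 3.58e-05), and the groups stood well apart. An antisense gene that overlaps its exons, Zeb2os, held 7, 10 and 3 reads in knockout-labelled libraries and 30, 78 and 87 in controls, few beside Zeb2. The sources used here do not say whether reads were counted by strand.

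Markers of monocytes and dendritic cells moved with these genes. Of 10 monocyte markers 8 fell and 0 rose in limma, edgeR and DESeq2 alike, but their summed normalized count overlapped between the groups, at 51693 to 105326 in knockout-labelled and 82418 to 93197 in control libraries, because Ly6c2, which did not pass, supplied most of it. Of 10 dendritic markers 6 fell and 0 rose in limma and edgeR (DESeq2 called Flt3 higher and Clec9a lower as well), with sums of 2001 to 4996 in knockout-labelled and 7932 to 23237 in control libraries, and no marker of either list had 0 reads throughout a group. Of 6 B cell markers 6 fell (sums 1086 to 1418 against 2156 to 2544), with Vpreb3 at 0 reads in all knockout-labelled libraries. Of 9 mast cell, basophil and eosinophil markers 6 fell and 2 rose (43053 to 55825 against 92210 to 97722), and of 6 stem and multipotent markers 3 fell (6651 to 7141 against 9876 to 10278), with Procr at 0 reads in all knockout-labelled libraries. In every library most of the stem and multipotent sum came from Cd48 (means 6570 in knockout-labelled and 9539 in control libraries). Most of the B cell sum came from Cd79b (1131 and 1791). These 2 sums thus describe single genes. Some of these marker calls rest on few libraries or on the processing. The Igll1 call (B cell) was lost without any 1 library other than knockout-labelled replicate 2 (limma adjusted p = 0.0574 to 0.135). It was lost over all genes with at least 1 read as well (0.0526). The Cpa3 call (mast cell) was lost in edgeR (0.0551) and without knockout-labelled replicate 1 or 2 or control replicate 2 or 3 (limma adjusted p = 0.0748 to 0.185). It was lost as well after correction for GC content and transcript length (0.173) and over all genes with at least 1 read (0.0654). Without control replicate 3 the calls of S100a4 (0.0579), Siglech (0.0775) and Xcr1 (0.0856) were lost, without control replicate 2 those of Siglech (0.0712) and Mcpt8 (0.0764), and without control replicate 1 those of Mcpt8 (0.0723) and Prg2 (0.0517). The part of such cells in the lower Irf8, Klf4 and Zeb2 was not tested.

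Gfi1, a zinc finger repressor that neutrophil precursors need, and Cebpe, whose product is required for the late granule genes of neutrophils, rose. The first of 2 Gfi1 promoter windows, chr5:107725756-107726055 on the minus strand of GRCm38.p6, is shown with capitals marking its match to TTNNGCAA, a pattern bound by C/EBP proteins, searched on both strands. The match lies at position -143, on the strand opposite to the printed one. The pattern occurred in 2 of the 8 factor genes with a promoter (Gfi1 and Zeb2) and in 10.8% of all windows.
Gfi1: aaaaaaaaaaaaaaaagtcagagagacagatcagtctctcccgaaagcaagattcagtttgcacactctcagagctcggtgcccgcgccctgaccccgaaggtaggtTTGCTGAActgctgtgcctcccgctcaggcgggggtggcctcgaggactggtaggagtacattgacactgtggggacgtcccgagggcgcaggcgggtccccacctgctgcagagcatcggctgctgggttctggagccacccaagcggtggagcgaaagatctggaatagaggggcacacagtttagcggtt

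Cebpe had 2241.2, 4057.4 and 2229.0 normalized counts in knockout-labelled libraries and 1560.2, 1504.9 and 1447.6 in control libraries. The groups did not overlap, and knockout-labelled replicate 2 stood above the other 2 libraries of its group. The change was 0.86 (SE 0.20, limma adjusted p = 0.00914), and 0.57 without that library (limma adjusted p = 0.00934). Gfi1 had 756.3, 641.4 and 741.1 normalized counts in knockout-labelled libraries and 459.4, 417.5 and 388.6 in control libraries. It rose by 0.76 (SE 0.16, limma adjusted p = 0.00451), with a similar spread in both groups. A430072P03Rik, on the other strand, overlaps Gfi1 exons and held 25 to 59 reads in knockout-labelled and 17 to 42 in control libraries.

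Of 10 neutrophil markers 1 rose (Lcn2) and 0 fell, and their sums overlapped, at 110675 to 309502 normalized counts in knockout-labelled and 139109 to 189292 in control libraries. Of 7 GMP markers 4 rose and 1 fell (Cd34), with sums of 1092018 to 1584173 in knockout-labelled and 873073 to 945308 in control libraries. Mpo, which did not pass (limma adjusted p = 0.251), and Elane supplied most of these sums. The calls of Elane and Kit, among those that rose, were lost in some settings, as given below. Of 7 erythroid and megakaryocyte markers 3 rose and 1 fell (5751 to 15502 against 5611 to 10593), the call of Hba-a1 being lost without knockout-labelled replicate 2 (0.0591) or 3 (0.0557) or control replicate 2 (0.0605). Itga2b did not pass in limma (adjusted p = 0.0816) but was called higher by edgeR (adjusted p = 0.0482). Of 4 tested T and NK cell markers 1 rose and 3 fell, and the list's sum, 36419 to 56007 against 28299 to 30407, came mostly from Nkg7. No marker of these 4 lists had 0 reads throughout a group. Their part in the higher Cebpe and Gfi1 was not tested.

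**Figure D2:**
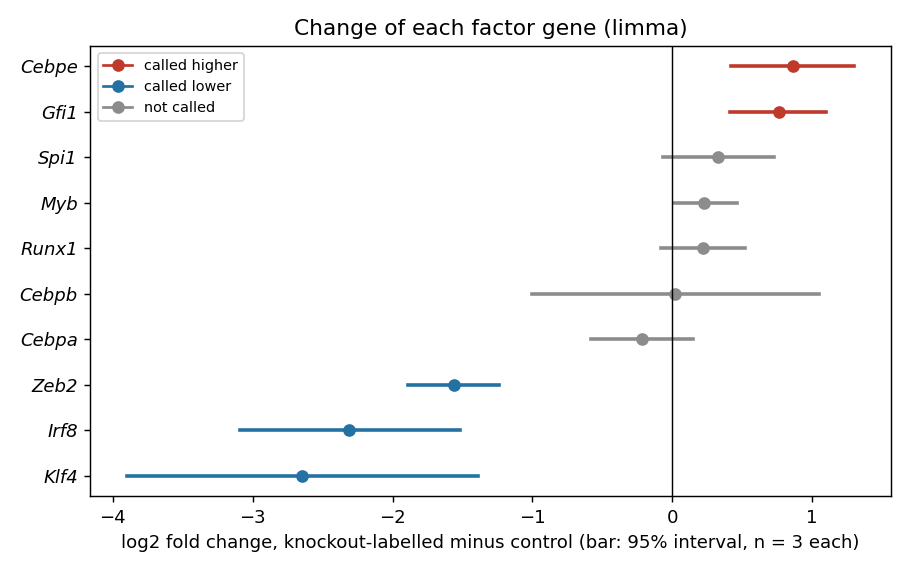
Log2 fold change of each factor gene (x axis, knockout-labelled minus control, limma on log2(value + 1), n = 3 each), with bars for the 95% interval. The intervals of Irf8, Klf4 and Zeb2 lie below 0 and those of Cebpe and Gfi1 above 0; Myb, at 0.01 to 0.46, did not pass after adjustment over all genes.

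Among the 5 genes that did not pass, the gene of PU.1 had overlapping groups. Spi1 had 3650.3, 5383.8 and 2940.4 normalized counts in knockout-labelled libraries and 2979.1, 3100.6 and 3147.4 in control libraries. Replicates 1 and 2 of the knockout-labelled group were above and replicate 3 below all controls, so the groups overlapped (log2 fold change 0.33, 95% interval -0.07 to 0.73, limma adjusted p = 0.206). Without knockout-labelled replicate 3 the change was 0.53 and passed (limma adjusted p = 0.0314), and without replicate 2 it was 0.09 (limma adjusted p = 0.648).

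Cebpa had 332.8, 324.8 and 376.8 normalized counts in knockout-labelled libraries and 390.9, 419.5 and 389.5 in control libraries. All 3 knockout-labelled values lay below the controls, by a margin that did not pass (log2 fold change -0.22, 95% interval -0.58 to 0.15, limma adjusted p = 0.374). Cebpb was hardly read, at 18.3 to 28.1 normalized counts in knockout-labelled and 20.4 to 30.3 in control libraries. Its log2 fold change was 0.02, and the 95% interval of -1.0 to 1.05 leaves changes within those bounds undetected at this depth. Tmem189, on the other strand, overlaps Cebpb exons and held 167, 116 and 172 reads in knockout-labelled libraries and 216, 129 and 148 in control libraries, more than the 16 to 34 of Cebpb, so the source of the Cebpb reads is uncertain.

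Runx1, the DNA-binding subunit of core binding factor, had 912.0, 939.1 and 854.2 normalized counts in knockout-labelled libraries and 795.2, 830.3 and 704.2 in control libraries. Myb, which keeps progenitors proliferating, had 6620.1, 6438.5 and 6945.1 in knockout-labelled libraries and 5634.9, 5485.5 and 5895.4 in control libraries. Both genes were higher in every knockout-labelled library than in any control, by 0.22 (95% interval -0.08 to 0.52, limma adjusted p = 0.269) and 0.23 (0.01 to 0.46, limma adjusted p = 0.118). After correction for GC content and transcript length Myb was at 0.31 and passed (limma adjusted p = 0.015). Non-overlap was common: the groups did not overlap for 8 of the 10 factors, 4 higher and 4 lower, and for 42.9% of all genes tested, 20.4% higher and 22.5% lower.

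The spread between the knockout-labelled libraries was itself uneven across the factors. The coefficient of variation in knockout-labelled libraries was 64.3% for Irf8, 85.9% for Klf4, 37.0% for Cebpe and 31.5% for Spi1, against 4.48%, 40.8%, 3.745% and 2.82% in control libraries. For Myb it was 3.85% in knockout-labelled and 3.66% in control libraries, and over all genes tested the median was 19.2% and 12.3%. Knockout-labelled replicate 2 was the highest and replicate 3 the lowest for 7 factors (Irf8, Spi1, Cebpb, Cebpe, Klf4, Zeb2 and Runx1), an order that 15.1% of all genes tested had. For some of the 7 the order rests on small differences. Cebpe was at 2241.2 in replicate 1 and 2229.0 in replicate 3, Runx1 spanned 1.1-fold, and Cebpb had 25, 27 and 16 reads. Cebpa and Myb had the opposite order. The sums of 7 of the 11 marker lists had the same order as those factors (neutrophil, monocyte, dendritic, B cell, T and NK cell, sort gate and gated-out markers). Single genes made up most of 3 of these sums in every knockout-labelled library. Ly6c2 (87913.8, 98226.6 and 46715.8 normalized counts) did so for monocytes and Nkg7 (47845.6, 55954.7 and 36323.2) for T and NK cells. Cd79b (1093.4, 1303.5 and 995.8) did so for B cells. Those 3 sums therefore do not show the order for their lists as a whole. In some knockout-labelled libraries 1 gene also made up most of the neutrophil (Ngp), gated-out (Itgam), sort gate (Fcgr3) or dendritic (Cd74) sum. The part of these markers in that order was not tested.

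Levels can be set against each other per kilobase of transcript, using the longest GENCODE transcript of each gene. In knockout-labelled libraries the order was Cebpe (2291 ± 848 normalized counts per kb), Spi1 (1962 ± 618) and Myb (1806 ± 69.5), whose values overlapped, and then Irf8 (402.3 ± 259; SD, n = 3). Next came Gfi1 at 249.3 ± 21.8, which overlapped Irf8, then Runx1 at 153.9 ± 7.41, Cebpa at 131.3 ± 10.7 and Zeb2 at 83.3 ± 14.0 per kb, with Cebpb (16.2 ± 3.53) and Klf4 (13.95 ± 12.0) overlapping at the end. In control libraries Irf8 stood at the top at 1710 ± 76.7 per kb, with no overlap with Myb (1536 ± 56.2), which overlapped Spi1 (1512 ± 42.7). Cebpe followed at 1212 ± 45.4 and Zeb2 at 243.6 ± 12.2, then Cebpa (152.3 ± 6.43), Gfi1 (147.5 ± 12.4) and Runx1 (132.5 ± 11.1), each overlapping the next, and last Klf4 (71.0 ± 29.0) and Cebpb (15.9 ± 3.68). By mean, Irf8 was thus the fourth of the 10 in knockout-labelled libraries and the first in control libraries. Cebpe, the fourth in control libraries, had the highest mean in knockout-labelled libraries only through replicate 2, without which Myb had the higher mean.

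Ratios of 2 factors within a library do not depend on how libraries were scaled, and are given as a description. Irf8 over Gfi1, the opposing pair, was 1.64, 3.68 and 0.792 in knockout-labelled libraries and 13.5, 14.2 and 14.6 in control libraries. Irf8 over Spi1, whose products bind DNA together, was 0.339, 0.439 and 0.200 in knockout-labelled and 2.08, 1.91 and 1.80 in control libraries. In these ratios every knockout-labelled library lay far below the controls. Cebpe over Cebpa was 6.73, 12.5 and 5.92 in knockout-labelled and 3.99, 3.59 and 3.72 in control libraries, again without overlap. Spi1 over Cebpa overlapped, at 11.0, 16.6 and 7.80 against 7.62, 7.39 and 8.08. Klf4 over Irf8 overlapped too, at 0.0267, 0.0348 and 0.0195 in knockout-labelled and 0.0276, 0.0535 and 0.0278 in control libraries. Among knockout-labelled libraries Irf8 varied 4.02-fold and Klf4 7.20-fold.

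**Figure D3:**
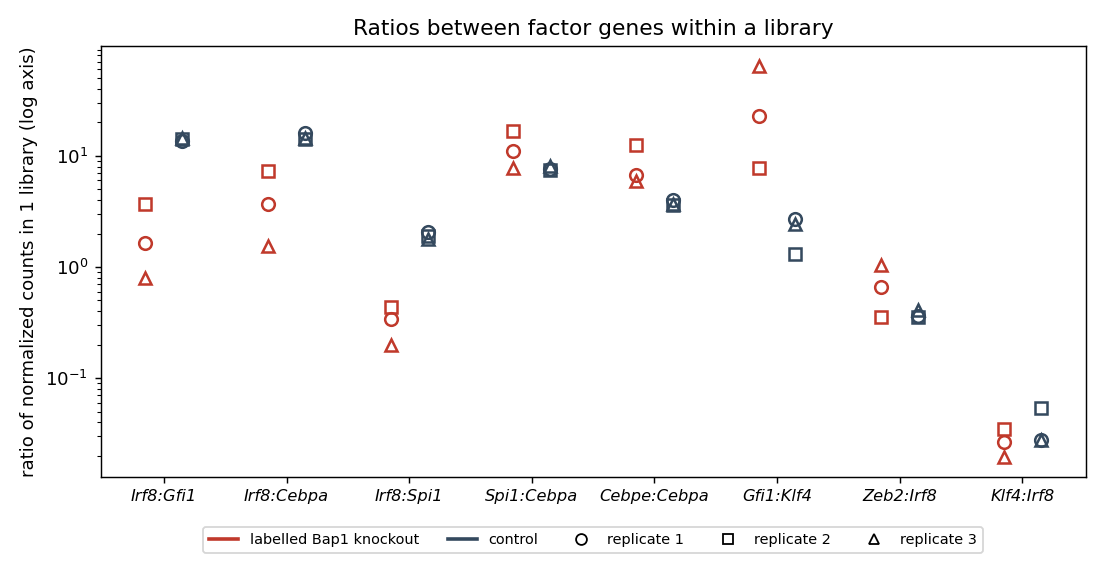
Ratio of the normalized counts of 2 factor genes in the same library (y axis, log scale) for 8 pairs (x axis), in knockout-labelled (red, left) and control (dark, right) libraries, with point shape giving the replicate number. Irf8 over Gfi1 lies between 0.792 and 3.68 in knockout-labelled libraries and between 13.5 and 14.6 in controls, while Klf4 over Irf8 overlaps.

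The genes nearest in pattern were found by the root mean square difference of log2(value + 1), each gene centred on its mean over the 6 libraries, among 10359 genes with a mean normalized count of at least 100. Much of that likeness is the difference between groups, which all these genes share, and a like order of libraries follows from the choice. Nearest to Irf8 were Rassf4 (0.099), Hnmt, which encodes a histamine methyltransferase (0.114), and Csf1r, the receptor of macrophage colony-stimulating factor (0.133). Csf1r had 431.0, 723.6 and 237.5 normalized counts in knockout-labelled libraries and 2426.5, 2262.6 and 2121.4 in control libraries. Nearest to Klf4 were Pld4 (0.346), Rassf4 (0.389) and the lysozyme gene Lyz2 (0.397), none of them as close. Nearest to Zeb2 were Gm15428 (0.073), As3mt (0.076) and Rnf13 (0.084).

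Among the genes nearest to Cebpe were Cyba, a subunit of the phagocyte NADPH oxidase (0.073), and Borcs8 (0.098). Cyba had 8563.6, 13394.4 and 8224.1 normalized counts in knockout-labelled libraries and 5776.1, 5659.4 and 5043.3 in control libraries. For Gfi1 the nearest were C330021F23Rik (0.052), Gm7707 (0.054) and Kif16b (0.067).

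**Figure D4:**
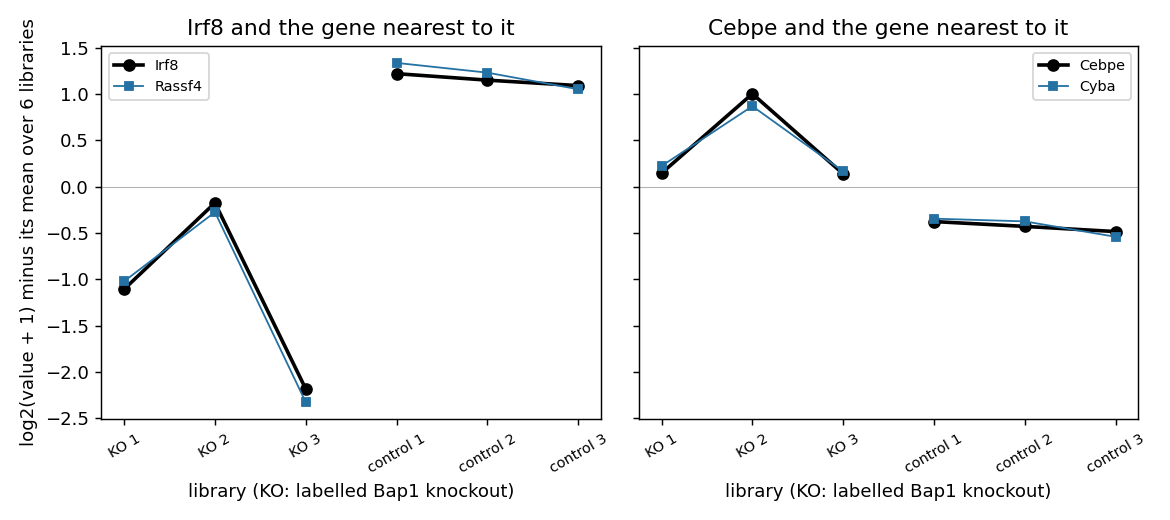
Log2(value + 1) minus its mean over 6 libraries (y axis) in each library (x axis) for Irf8 and the gene nearest to it, Rassf4 (left), and Cebpe and the gene nearest to it, Cyba (right). Knockout-labelled libraries (KO) are on the left of each panel; Irf8 and Rassf4 are lowest in replicate 3, and Cebpe and Cyba are highest in replicate 2.

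The IRF family moved mostly one way. Of 8 tested members 5 fell and 0 rose, with a median log2 fold change of -1.04, against 0.01 over all genes tested. Irf9, whose product acts in the response to type I interferon, had 301.9, 325.9 and 372.3 normalized counts in knockout-labelled libraries and 1125.7, 1097.9 and 950.2 in control libraries (log2 fold change -1.66, SE 0.16, limma adjusted p = 3.35e-05). Irf1 fell by 0.80 and Irf5, a factor of inflammatory macrophages, by 0.93 (limma adjusted p = 0.00522 and 0.00921). Irf7, which amplifies type I interferon and is named after its values were seen, fell by 1.15 (limma adjusted p = 0.0219), and this was lost without knockout-labelled replicate 3 (0.0526) or control replicate 1 (0.11) or 3 (0.0777). Irf2 and Irf3 were at -0.39 and -0.21 and did not pass (limma adjusted p = 0.165 and 0.333). Irf8 made up 20.7 ± 9.01% of the family's summed count per kb in knockout-labelled libraries and 42.8 ± 0.704% in control libraries (SD, n = 3).

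The C/EBP family was split. Of 6 tested members 1 rose (Cebpe) and 1 fell, Cebpg, a short partner that lacks an activation domain, at 228.7 ± 35.7 normalized counts in knockout-labelled and 682.9 ± 163 in control libraries (log2 fold change -1.56, SE 0.22, limma adjusted p = 0.000425). The family median was -0.10. Cebpe supplied 80.8 ± 4.41% of the family's summed count per kb in knockout-labelled and 63.9 ± 5.61% in control libraries. Cebpd was at 0.82 and did not pass (limma adjusted p = 0.137).

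Of 16 ETS genes 1 rose and 3 fell (median 0.04). Ets1 fell by 1.30 and Etv3 by 1.07 (limma adjusted p = 0.00404 and 0.00796), Spib, a close relative of Spi1 used by B and plasmacytoid dendritic cells, fell at very low counts (0 to 7 normalized counts in knockout-labelled libraries), and Elk4 rose by 0.78 (limma adjusted p = 0.0134). The Elk4 call was lost without control replicate 2 (0.0597), and that of Spib without knockout-labelled replicate 1 (0.0517) or 2 (0.0629) or control replicate 1 (0.0956) or 3 (0.0763). Of 13 tested KLF genes 3 rose and 3 fell (median -0.01): Klf13 rose by 0.71 (limma adjusted p = 0.00113), Klf5 by 1.32 (0.00921) and Klf9 by 1.09 (0.0104; 0.0534 without control replicate 3). Beside Klf4, Klf6 fell by 0.79 (limma adjusted p = 0.0242) and Klf10 by 0.48 (0.0351). The Klf6 call was lost without any 1 library other than knockout-labelled replicate 2 (limma adjusted p = 0.0578 to 0.0808) and after GC and length correction (0.075). The Klf10 call was lost without knockout-labelled replicate 2 (0.101), control replicate 2 (0.151) or control replicate 3 (0.145), and with a replicate block (0.0507). DESeq2 called Klf3 lower (adjusted p = 0.0476), which did not pass in limma (adjusted p = 0.0618). It also called Klf15, under the filter of limma, higher (adjusted p = 0.0444).

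Few RUNX, GFI1, ZEB and MYB relatives and partners were called. Of 6 RUNX genes and partners 1 rose and 0 fell (median 0.25): Runx2, by 0.55 (limma adjusted p = 0.0383), a call lost without any 1 library other than knockout-labelled replicate 2 (0.0534 to 0.147) and with a replicate block (0.0666). Cbfb, the partner subunit of RUNX1, was at 0.02 (limma adjusted p = 0.962). Among 9 tested GFI1 and ZEB repressors and corepressors, Gfi1 and Zeb2 were the only genes called; the GFI1 corepressors Kdm1a and Rcor1 were at -0.19 and -0.17 (limma adjusted p = 0.559 and 0.46), and Zeb1, the paralogue of Zeb2, had 0 reads in every library. Of 4 tested MYB family and coactivator genes 0 were called by limma, with 2 of them, Myb and Mybl2, at an unadjusted p under 0.05, and edgeR and DESeq2 called neither. Mybl1, under the filter of limma with 0, 0 and 3 reads in knockout-labelled and 14, 16 and 19 in control libraries, was called lower by edgeR (adjusted p = 0.0206) and DESeq2 (0.0414).

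Other lineage regulators moved in part. Of 12 tested regulators of monocytes and dendritic cells outside the 10 factors 1 rose and 5 fell in limma (median 0.03). Maf, a macrophage factor under the filter of limma, had 0 reads in all knockout-labelled libraries and 24, 11 and 13 in control libraries, and was called lower by edgeR (adjusted p = 0.00399) and DESeq2 (0.00241). The call of Zbtb46, a dendritic factor among the 5, was lost without knockout-labelled replicate 1 (0.0871) or 2 (0.0946) or control replicate 2 (0.0671) or 3 (0.171). It was lost as well over all genes with at least 1 read (limma adjusted p = 0.0643). Tcf4, which directs plasmacytoid dendritic cells, fell 7.49-fold (log2 fold change -2.90, SE 0.22, limma adjusted p = 7.95e-06), and Vdr, the vitamin D receptor, 4.85-fold (0.00423). Id2, an inhibitor of E proteins such as TCF4, rose by 0.81 (limma adjusted p = 0.0306), although knockout-labelled replicate 3 (1567) lay among the controls (1171 to 1678). The Id2 call was lost without knockout-labelled replicate 1 (0.105) or 2 (0.125) or control replicate 2 (0.131) or 3 (0.0764). Of 12 erythroid, megakaryocyte and mast cell regulators 0 rose and 1 fell in limma, Mitf, a mast cell factor, by 2.44 (limma adjusted p = 0.0049; median 0.16). DESeq2 called Gata1 (0.61, adjusted p = 0.0379) and Nfe2 (0.35, adjusted p = 0.0469) higher, both at an unadjusted p under 0.05 in limma. Of 9 tested lymphoid regulators Tcf7 rose and Ebf1 fell (median -0.37), and of 14 stem and progenitor regulators Hhex and Prdm16 rose and Hoxa7 and Hoxa9 fell (median -0.12). Gata3, a lymphoid regulator at low counts, did not pass in limma (-2.66, adjusted p = 0.0502) but was called lower by edgeR (adjusted p = 0.0413).

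**Figure D5:**
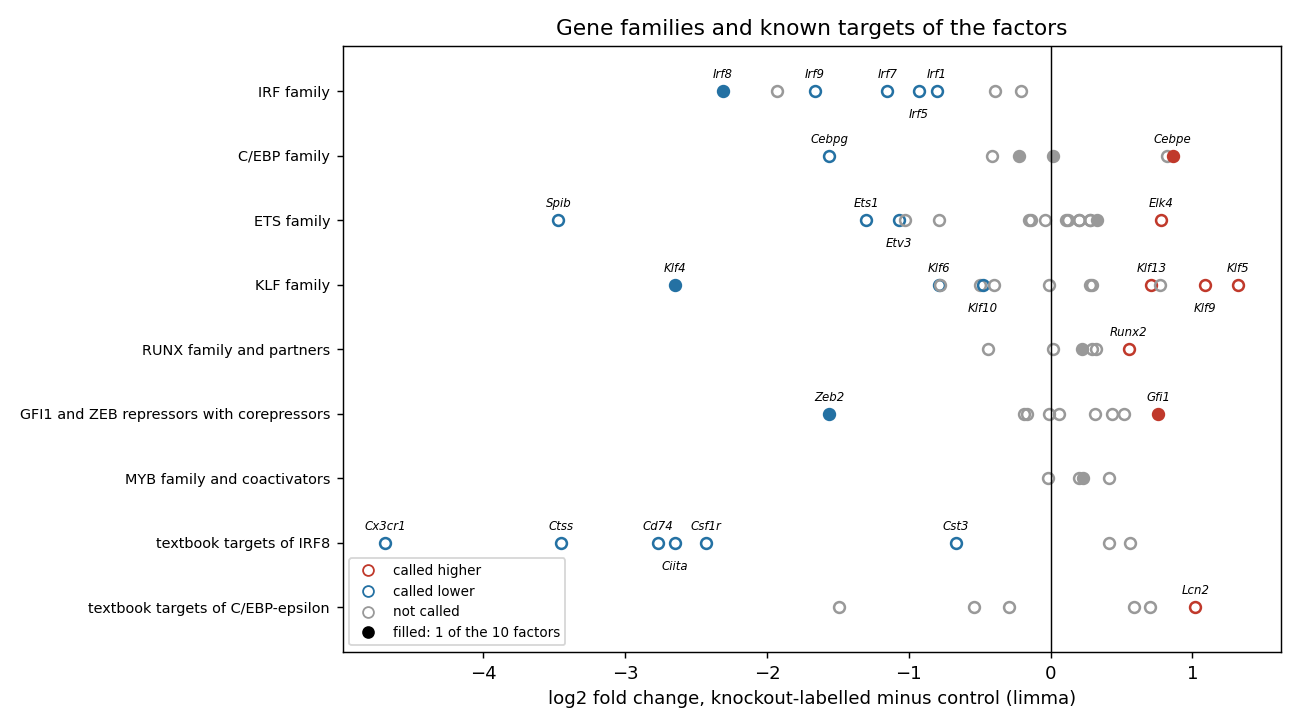
Log2 fold change (x axis, knockout-labelled minus control, limma) of the tested genes of 7 factor families and 2 lists of known targets (y axis); filled points are the 10 factors and named points were called. The 5 called IRF genes and the 6 IRF8 targets called by limma all lie below 0, whereas called KLF genes lie on both sides.

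Known targets were then read list by list, with several genes standing in more than 1 list. Of 8 genes known to need IRF8, 6 fell and 0 rose in limma, with a median of -2.54. Of the 6, Ciita, the class II transactivator gene, fell at low counts (limma adjusted p = 0.0316) and was not called by edgeR (0.0568) or DESeq2 (0.0546). Its call was lost as well without any 1 library other than knockout-labelled replicate 2 (limma adjusted p = 0.0509 to 0.124). Cx3cr1, the fractalkine receptor, fell 25.8-fold and Ctss, a lysosomal protease, 10.9-fold (log2 fold changes -4.69 and -3.45, limma adjusted p = 2.88e-05 and 3.30e-05), and Csf1r fell by 2.43 (0.000199). Cybb, the catalytic subunit of the phagocyte oxidase, was at 0.56 and did not pass (limma adjusted p = 0.143), but DESeq2 called it higher (0.66, adjusted p = 0.0228). Of 6 late granule genes known to need C/EBP-epsilon, 1 rose and 0 fell, with a median of 0.15: Lcn2, at 22000 ± 5117 normalized counts in knockout-labelled and 10900 ± 2933 in control libraries (log2 fold change 1.02, limma adjusted p = 0.00377). Ltf stood at 9254, 13744 and 2019 in knockout-labelled and 18279, 22663 and 13698 in control libraries, and did not pass (limma adjusted p = 0.0536). Camp and Ngp were at 0.70 and 0.59 and did not pass either (limma adjusted p = 0.161 and 0.169), and both were lowest in knockout-labelled replicate 3.

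Of 9 targets of PU.1, C/EBP-alpha and RUNX1, 1 rose and 3 fell (median 0.20). Beside Csf1r, the endotoxin co-receptor gene Cd14 fell by 2.24 and the integrin gene Itgam by 1.13 (limma adjusted p = 0.00219 and 0.0178), the call of Itgam being lost without control replicate 1 (0.051) or 2 (0.0716). The granulocyte receptor gene Csf3r was at 0.20 and Csf2ra at 0.22 (limma adjusted p = 0.241 and 0.484). Il6ra did not pass in limma (adjusted p = 0.0682) but was called lower by DESeq2 (adjusted p = 0.0472). Elane, the neutrophil elastase gene, rose by 0.69 (limma adjusted p = 0.0263). That call did not hold without control replicate 1 (0.0952), 2 (0.102) or 3 (0.14), or over all genes with at least 1 read (0.0696). Of 7 tested genes known to be repressed by GFI1, 1 rose (Id2) and 3 fell, Hoxa9 by 2.63, Csf1r, and Csf1, the ligand of Csf1r, by 1.4 (limma adjusted p = 0.000199 and 0.00921 for Hoxa9 and Csf1; Csf1 at 0.0509 without control replicate 1), with a median of -0.13. Of 7 genes that MYB is known to activate 3 rose and 2 fell (median 0.30): Cdk6 rose by 0.67 and Kit by 0.47 (limma adjusted p = 0.0028 and 0.0214), and Cd34 fell by 1.54 and Bcl2 by 1.09 (5.04e-06 and 0.00171). The Kit call was lost without knockout-labelled replicate 3 (0.054) or control replicate 1 (0.078) or 3 (0.0937).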

How the data were processed

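Bulk RNA was measured in 6 libraries of sorted GMPs. Per the labels' protocols, a SMARTer kit for low input amplified the RNA before Ion Total RNA-Seq library preparation. Tools listed in the submitters' processing notes are HTSeq, STAR, BWA 0.7.5a, DESeq2 and Picard, and the builds are mm9 and NCBIM37. The deposited values are a signal per gene, made by the authors from read counts with a single scale factor in each library: at least 99.99% of values above 0 were whole multiples of the smallest value of their library (0.8885 to 1.1419), within 0.01 of a read. Dividing by that value gave whole reads. The 5 rows naming no gene, 74.8 to 77.1% of all reads listed, were kept out. Symbols came from GENCODE M21 (32897 of 37620 IDs), on another build than the files, so no coordinates other than RefSeq promoters are given.

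The trend method of limma 3.58.1 (in R 4.3.3) was fitted to log2(value + 1) with group as the sole term, 2-sided, over 14391 genes; the added 1 shrinks differences of low genes on this scale, whereas a mean of logs can also lie farther from 0 than the fold of a count model, as for Klf4. On the recovered reads, edgeR 4.0.16 (quasi-likelihood) called 1687 genes higher and 2077 lower of 14458, and DESeq2 1.42.0 called 1921 higher and 2315 lower, against 1695 and 2163 by limma. The fits were tested on simulated data. Other alternatives were the pseudocount, the filter, TMM scaling, a replicate block, sex as a covariate, GC content and transcript length, and leaving out each library. Sex was read per library from Xist and Y-linked genes, and 1 library in each group read as female. The text names all 10 factors, up to 3 called genes of lowest p per list and direction, and the 3 nearest genes of each called factor; others are named after their values were seen, and 1 gene that the rule names is not reported here. The factors and lists were chosen with earlier results of these data known. Intervals cover the spread between libraries, and counting precision is limited by the reads given.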

Additional observations from a re-analysis of the deposited data

How the results depend on the processing

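Over 16 alternatives, 0 of the 5 factor calls were lost and 2 were gained, Spi1 without knockout-labelled replicate 3 (0.53, limma adjusted p = 0.0314) and Myb after GC content and transcript length correction (0.31, 0.015). The counts of factors called stayed at 3 lower, and at 2 to 3 higher. Leaving out 1 library moved the count of all genes called between 1032 and 1791 higher and between 1372 and 2324 lower (1032 and 1417 without control replicate 2, 1053 and 1372 without control replicate 3), and of listed genes between 10 and 18 higher and between 25 and 31 lower. With 2 libraries left in a group, the spread is pooled by limma. Of 79 other called list and marker genes, 57 kept their call in every alternative and 22 lost it in at least 1. Whether the numbers shared by the labels pair the libraries is not stated. Deviations of same-numbered libraries from their group means correlated at -0.10, 0.04 and -0.06 over genes. Those of differently numbered libraries correlated at -0.07 to 0.12. With 3 libraries in each group, these values cannot settle whether libraries were handled as pairs. With a replicate block 2 factors were called higher and 3 lower, the same counts as without it, over 1550 and 2014 genes in all. Cebpb and Klf4 are limited by depth, at 10 to 79 reads in knockout-labelled libraries.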
